A study of Mus musculus with 9 samples.

Results

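Saa3 and the WAP-domain genes Wfdc17, Wfdc21 and Slpi were described in neutrophils sorted from the mouse lung. The 4 genes, of 22064 listed, were chosen by symbol. They were picked for the higher level of Saa3 and Wfdc17 in metastatic than in normal lung, so every value that sets a metastatic group against normal lung is a description here and carries no test. All 9 bulk RNA-seq libraries came from female BALB/c mice, 3 per group. Macrometastatic Ly6Ghigh and macrometastatic Ly6Glow neutrophils were CD45+ cells from lungs at the macrometastatic stage after 4T1-LM3 cells, a lung-tropic derivative of the 4T1 mouse mammary carcinoma line, had been placed in the mammary fat pad. Normal lung (NL) neutrophils were Ly6Ghigh cells from lung tissue for which the labels name no tumor cells. Ly6Glow cells of normal lung are not among these libraries, so the gates can be compared only in the metastatic lung. The NL libraries are set apart by their titles and treatment labels alone, since their description fields name only the Ly6Ghigh group. Whether a library held the cells of 1 mouse or of several is not given in the sources used here, and p-values below measure the spread between these libraries, which may in part be technical.

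Serum amyloid A proteins are small apolipoproteins of the acute-phase response. The liver makes most of the circulating forms, whereas Saa3 is the form that mice make mainly outside the liver, in macrophages, adipocytes, epithelia and neutrophils, and it acts on formyl peptide and Toll-like receptors. The WAP (whey acidic protein) domain is a compact fold held by disulfide bonds that often binds and blocks serine proteases. Slpi, the secretory leukocyte protease inhibitor, carries a pair of WAP domains and blocks neutrophil elastase and cathepsin G. Wfdc17 (also called AMWAP) and Wfdc21 are small secreted proteins with a WAP core that are made by activated myeloid cells. Neutrophils store the proteases in granules that are filled early in their maturation, and make several of the inhibitors as well.

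In the mm10 genome Saa3 lies on the minus strand of chromosome 7 (46711998 to 46719615 in RefSeq) with 4 exons in its GENCODE transcript, and Slpi lies on the minus strand of chromosome 2 (164354070 to 164356507) with 4 exons. Wfdc17 (83704056 to 83706269) and Wfdc21 (83746940 to 83752646) both lie on the plus strand of chromosome 11, with 3 exons each. The annotated reading frames hold 122 codons for Saa3, of which 1 is a cysteine codon, against 17 of 131 for Slpi, 9 of 76 for Wfdc17 and 6 of 63 for Wfdc21. The WAP fold is rich in cysteines, which form its disulfide bonds. Of the 525 stretches of 31 bases in the Saa3 transcript, 28 also occur in Saa1, while the other 3 transcripts share none. The microRNA gene Mir7678 lies within Slpi on the same strand, and its reads could not be told apart from those of Slpi. Start regions were found for 3 of the 4 genes in a RefSeq table of the same build (GRCm38), 250 bases before and 50 after each start. They are shown because these genes had higher values together in the metastatic groups, and capitals mark every match to the motifs searched.
Saa3 (chr7:46715627-46715926, minus strand): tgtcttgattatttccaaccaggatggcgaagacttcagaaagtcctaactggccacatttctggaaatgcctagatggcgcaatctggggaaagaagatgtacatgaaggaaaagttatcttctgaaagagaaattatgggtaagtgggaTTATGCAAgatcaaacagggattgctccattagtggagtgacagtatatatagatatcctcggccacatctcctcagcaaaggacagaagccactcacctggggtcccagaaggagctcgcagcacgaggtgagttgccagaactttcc
Wfdc17 (chr11:83703806-83704105, plus strand): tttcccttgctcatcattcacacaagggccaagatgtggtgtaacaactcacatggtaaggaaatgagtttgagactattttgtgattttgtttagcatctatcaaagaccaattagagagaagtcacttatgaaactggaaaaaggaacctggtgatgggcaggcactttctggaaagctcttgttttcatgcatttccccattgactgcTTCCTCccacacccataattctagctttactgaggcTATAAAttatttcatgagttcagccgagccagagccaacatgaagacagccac
Slpi (chr2:164356458-164356757, minus strand): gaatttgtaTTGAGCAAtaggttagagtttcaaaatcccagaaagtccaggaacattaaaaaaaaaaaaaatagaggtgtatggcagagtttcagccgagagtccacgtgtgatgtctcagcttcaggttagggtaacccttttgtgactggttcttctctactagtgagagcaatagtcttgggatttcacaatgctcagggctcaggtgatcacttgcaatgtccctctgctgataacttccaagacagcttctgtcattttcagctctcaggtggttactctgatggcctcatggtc

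The motifs were searched on both strands as the TATA box TATAAA, the C/EBP core TTGCNNAA, the AP-1 site TGANTCA, the STAT core TTCNNNGAA, the PU.1 core GAGGAA and the NF-kB consensus. The C/EBP core matched once in the Saa3 window, on the opposite strand with its first base at position -99, and once in the Slpi window, also on the opposite strand, at -241. Of all 32851 windows of this length, 10.8% hold that core. The Wfdc17 window holds TATAAA at -3 (13.6% of windows hold it) and the PU.1 core on the opposite strand at -39 (28.3%). GENCODE places the Wfdc17 transcript start farther upstream, at 83703991, so that these positions depend on the annotation. No match to AP-1, STAT or NF-kB lay in these 3 windows, and 7.81%, 8.3% and 4.51% of all windows hold one. A match is a run of letters, and binding was not measured.

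Levels are given first per length, as FPKM (fragments scaled to transcript length and library size), so that the 4 genes can be set beside each other. Saa3 stood at 49.86, 54.95 and 48.46 FPKM in the NL libraries. In the macrometastatic Ly6Ghigh libraries it stood at 906.8, 880.54 and 860.51, and in the Ly6Glow libraries at 1411.15, 1435.07 and 1337.96. The 3 groups were far apart, with no overlap between libraries. By FPKM, Saa3 ranked from 1268 to 1434 among the 18325 genes with values in NL, from 61 to 68 in macrometastatic Ly6Ghigh and at 36 in every Ly6Glow library. Wfdc17 was the most abundant of the 4 genes in every library. It stood at 715.8, 673.18 and 696.9 FPKM in NL, and thus was already among the 60 highest genes there. Its values were 2603.48, 2514.78 and 2497.97 in macrometastatic Ly6Ghigh and 4923.7, 5007.61 and 4726.75 in Ly6Glow, where it ranked at 8 in each library. No library of any group overlapped with another group.

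Wfdc21 stood at 284.74, 268.08 and 255.29 FPKM in NL. Its values were 1145.33, 1110.29 and 1094.92 in macrometastatic Ly6Ghigh and 993.92, 1030.84 and 935.25 in Ly6Glow. Here the metastatic groups lay close to each other and far above NL. On FPKM every Ly6Glow library was below every macrometastatic Ly6Ghigh library, an order that did not hold on the scale used for the test (below). Slpi, the inhibitor of neutrophil elastase, spanned the narrowest range. It stood at 178.63, 156.01 and 170.12 FPKM in NL, at 332.32, 319.92 and 306.13 in macrometastatic Ly6Ghigh and at 359.98, 362.06 and 337.29 in Ly6Glow. The lowest Ly6Glow library was only slightly above the highest macrometastatic Ly6Ghigh library.

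**Figure D1:**
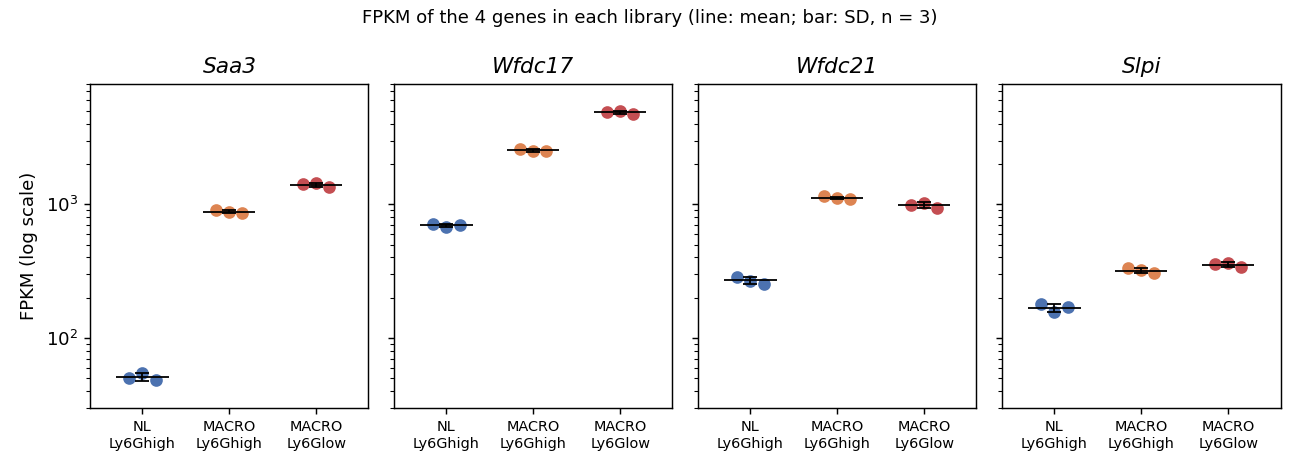
FPKM (vertical, log scale) of Saa3, Wfdc17, Wfdc21 and Slpi in each of the 9 libraries, grouped as NL Ly6Ghigh, macrometastatic (MACRO) Ly6Ghigh and macrometastatic Ly6Glow, with the mean as a line and the SD of 3 libraries as a bar. Saa3 goes from a mean of 51.1 in NL to 883 and 1395 in the metastatic groups, and Slpi from 168 to 319 and 353.

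The order of the 4 genes by FPKM changed between groups. In NL it was Wfdc17 (mean 695 ± 21.4 SD, n = 3), Wfdc21 (269 ± 14.8), Slpi (168 ± 11.4) and Saa3 (51.1 ± 3.42). In macrometastatic Ly6Ghigh neutrophils Saa3 (883 ± 23.2) stood above Slpi (319 ± 13.1) and below Wfdc21 (1117 ± 25.8) and Wfdc17 (2539 ± 56.7). In Ly6Glow neutrophils it stood above Wfdc21 as well, with 1395 ± 50.6 against 987 ± 48.2. Neighbours in each order did not overlap in any library. Within a library, the ratio of Saa3 to Slpi was 0.279 to 0.352 in NL, 2.73 to 2.81 in macrometastatic Ly6Ghigh and 3.92 to 3.97 in Ly6Glow. The ratio of Wfdc17 to Wfdc21 was alike in NL (2.51 to 2.73) and macrometastatic Ly6Ghigh (2.26 to 2.28) and higher in Ly6Glow (4.86 to 5.05). Together the 4 genes took 0.0548% to 0.0588% of all counts in NL, 0.222% to 0.234% in macrometastatic Ly6Ghigh and 0.341% to 0.364% in Ly6Glow.

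For fold changes, CPM values (counts scaled to library size, here with TMM factors) were compared in 1 edgeR model of all libraries. The libraries held 15267177 to 17841807 counts, and Saa3 in NL, the lowest of the member values, still had 492.66 to 526.91 estimated counts per library, so that counting error was small beside these differences. In macrometastatic Ly6Ghigh over NL, Saa3 was higher by 4.56 on the log2 scale (SE 0.047), a 23.5-fold difference that ranked at 14 from the top among 14108 tested genes. Wfdc21 followed with 2.52 (SE 0.045), then Wfdc17 with 2.33 (SE 0.036) and Slpi with 1.39 (SE 0.048), or 5.72-fold, 5.04-fold and 2.62-fold. In Ly6Glow over NL the values were 5.47 (SE 0.048) for Saa3, which ranked at 6 from the top, 3.51 (SE 0.037) for Wfdc17, 2.57 (SE 0.045) for Wfdc21 and 1.77 (SE 0.049) for Slpi. These correspond to 44.2-fold, 11.4-fold, 5.95-fold and 3.41-fold. Both comparisons use the same NL libraries and are not independent of each other. All 4 genes had higher values in every metastatic library than in any NL library, beside 26.3% of all tested genes called higher and 36.6% called lower in macrometastatic Ly6Ghigh over NL, and 28.7% and 40.8% in Ly6Glow over NL. Calls needed a log2 fold change beyond 0.58 in either direction and a Benjamini-Hochberg adjusted p no higher than 0.05. Since the genes were picked on these contrasts, nothing is read from their count.

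These differences were smaller on log2(FPKM + 1), fitted in limma over 18317 genes. Medians here were taken over the 14108 genes tested in the main edgeR fit, also where a fit held more genes. The median was -0.088 on CPM and -0.324 on log2(FPKM + 1) in macrometastatic Ly6Ghigh over NL. In Ly6Glow over NL it was -0.156 and -0.489. With no filter on counts, the edgeR fit of 18299 genes gave -0.067 and -0.154 over the same 14108 genes. Higher genes made up 41.8% of the called genes in the first comparison on CPM and 21.8% on log2(FPKM + 1), and 41.3% against 14.8% in the second. Saa3 was then higher by 4.09 and 4.75, Wfdc17 by 1.87 and 2.81, Wfdc21 by 2.05 and 1.87 and Slpi by 0.92 and 1.07, so that Wfdc21 was the only 1 of the 4 genes that no longer had its larger value in Ly6Glow. Relative to the median of those 14108 genes on each scale, Saa3 in Ly6Glow over NL was higher by 5.62 on CPM and by 5.23 on log2(FPKM + 1). Slpi was higher by 1.92 and 1.56.

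Neutrophil markers were also higher in the metastatic libraries. The 12 neutrophil markers (such as S100a8, S100a9, Cxcr2 and Mmp8) summed to 22806 to 22992 CPM in NL, 74972 to 76801 in macrometastatic Ly6Ghigh and 83739 to 85517 in Ly6Glow. Their median log2 fold change was 1.62 in macrometastatic Ly6Ghigh over NL, where 10 of 12 were called higher and 1 (Trem1) lower, and 1.9 in Ly6Glow over NL, where 11 were called higher. Set against that median, Saa3 was higher by 2.94 and 3.56 on the log2 scale, Wfdc17 by 0.72 and 1.61 and Wfdc21 by 0.9 and 0.67. Slpi was below it, by values of -0.23 and -0.13. These distances depend on the list. The 12 granule genes of immature neutrophils (below) had a median of 3.63 in macrometastatic Ly6Ghigh over NL, where 11 were called higher. Saa3 stood above that median, and Wfdc17, Wfdc21 and Slpi stood below it. In Ly6Glow over NL their median was 1.08, and each member stood above it. In bulk RNA, fewer cells of a type and less RNA per cell cannot be told apart, and the part of neutrophil content in the member differences was not tested.

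**Figure D2:**
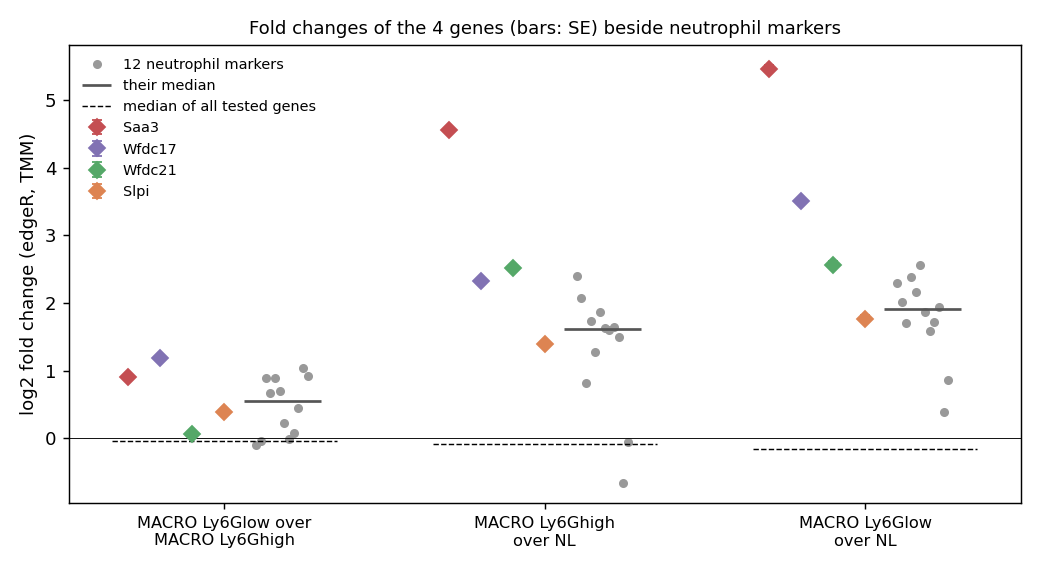
Log2 fold change (vertical, edgeR with TMM) of the 4 genes (diamonds, bars show the SE) in the 3 comparisons, beside the 12 neutrophil markers (grey points, line at their median) and the median of all tested genes (dashed). Saa3, picked for its rise over NL, stands above each of these 12 markers in both comparisons with NL, at 4.56 and 5.47. Slpi stands close to the marker median, at 1.39 and 1.77.

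The comparison of Ly6Glow with Ly6Ghigh neutrophils of the same metastatic stage was tested. The genes were picked on metastatic against normal lung, not on this contrast. The pick did rest on the same metastatic libraries, Ly6Glow among them, so the test is not independent of it. Wfdc17 and Saa3, the genes whose rise guided the pick, rose, and Wfdc21 and Slpi did not pass both thresholds. Wfdc17 had 1125 ± 28.3 CPM (SD, n = 3) in macrometastatic Ly6Ghigh and 2549 ± 79.5 CPM in Ly6Glow, 2.27-fold more (1.18 on the log2 scale, SE 0.034, edgeR adjusted p = 1.97e-17). Saa3 had 537 ± 20.2 and 1008 ± 38.9 CPM, 1.88-fold more (0.91 on the log2 scale, SE 0.036, edgeR adjusted p = 4.53e-15). For both genes the lowest Ly6Glow library was above the highest macrometastatic Ly6Ghigh library. Slpi had 279 ± 12.1 and 363 ± 14.6 CPM, a difference of 0.38 on the log2 scale (SE 0.046, edgeR adjusted p = 3.41e-07), below the fold threshold although its libraries did not overlap. Wfdc21 had 458 ± 11.9 and 477 ± 24.2 CPM with overlapping libraries, a difference of 0.06 on the log2 scale (SE 0.041, edgeR adjusted p = 0.243). Thus 2 of the 4 genes were called higher and none lower, beside 9.29% of all tested genes called higher and 15.9% called lower. Since these 2 are the genes that guided the pick, nothing is read from this count.

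On log2(FPKM + 1) the same comparison gave 0.94 for Wfdc17, 0.66 for Saa3, 0.14 for Slpi and a reversed sign, -0.18, for Wfdc21. Higher genes made up 36.8% of the called genes on CPM and 14.1% on log2(FPKM + 1). The calls of Wfdc17 and Saa3 held in each alternative normalization, filter and fit and without each library in turn, at the fold threshold of 0.58. At a threshold of 1, Saa3 (0.91) would not be called. Against the median of the neutrophil markers, which was 0.55 in this comparison, Wfdc17 was higher by 0.63 and Saa3 by 0.35, while Slpi and Wfdc21 were below it, by values of -0.17 and -0.5. Ly6g itself, the gene of the sorted surface protein, had 374 ± 10.8 CPM in macrometastatic Ly6Ghigh and 394 ± 9.32 CPM in Ly6Glow (log2 fold change 0.08, edgeR adjusted p = 0.0577), a difference that did not pass the test.

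Markers of other cells were present and differed between groups. The 16 lung epithelial markers summed to 1706 to 1851 CPM in NL, 222 to 234 in macrometastatic Ly6Ghigh and 245 to 255 in Ly6Glow, and the 14 fibroblast and endothelial markers to 1741 to 1860, 227 to 232 and 261 to 273. The 16 alveolar macrophage markers summed to 2634 to 2652 in NL, 1734 to 1787 in macrometastatic Ly6Ghigh and 426 to 447 in Ly6Glow, with 11 called lower in Ly6Glow than in macrometastatic Ly6Ghigh. Chil3, which is also on the list of immature neutrophil granule genes, gave means of 964, 1270 and 277 CPM of these sums. It thus made up most of the sum in both metastatic groups, and less of it in NL. These 3 lists were highest in NL, where all 4 genes were lowest, and the alveolar macrophage list was lowest in Ly6Glow, where Saa3, Wfdc17 and Slpi were highest. The 12 monocyte and macrophage markers summed to 1235 to 1329, 806 to 814 and 802 to 829 in the same order of groups. Eosinophil and basophil markers (12 genes) summed to 68.8 to 71.4, 151 to 161 and 62.1 to 64.3. Siglecf (38.7 CPM in NL), also on the alveolar macrophage list, and Gata2 (24.4) made up most of the NL sum. In macrometastatic Ly6Ghigh over NL, 9 of 11 tested were called higher and 1, Gata2, lower (median 3.57 beside -0.09 over all tested genes). Prg2 went from 0.226 to 29.4 CPM and Ear6 from 0.286 to 31.9. T, B and NK cell markers (14 genes) summed to 107 to 108, 91.6 to 93.3 and 59.8 to 61.5. Only Bpifa1, an airway epithelial gene, was at 0 counts in all libraries of a group (macrometastatic Ly6Ghigh). Granule genes of immature neutrophils (12 genes, among them Ltf, Ngp and Camp) summed to 6343 to 6630 CPM in NL, 35779 to 36512 in macrometastatic Ly6Ghigh and 12887 to 13410 in Ly6Glow, and 11 of 12 were called lower in Ly6Glow than in macrometastatic Ly6Ghigh. The part of these cells in the member values was not tested.

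**Figure D3:**
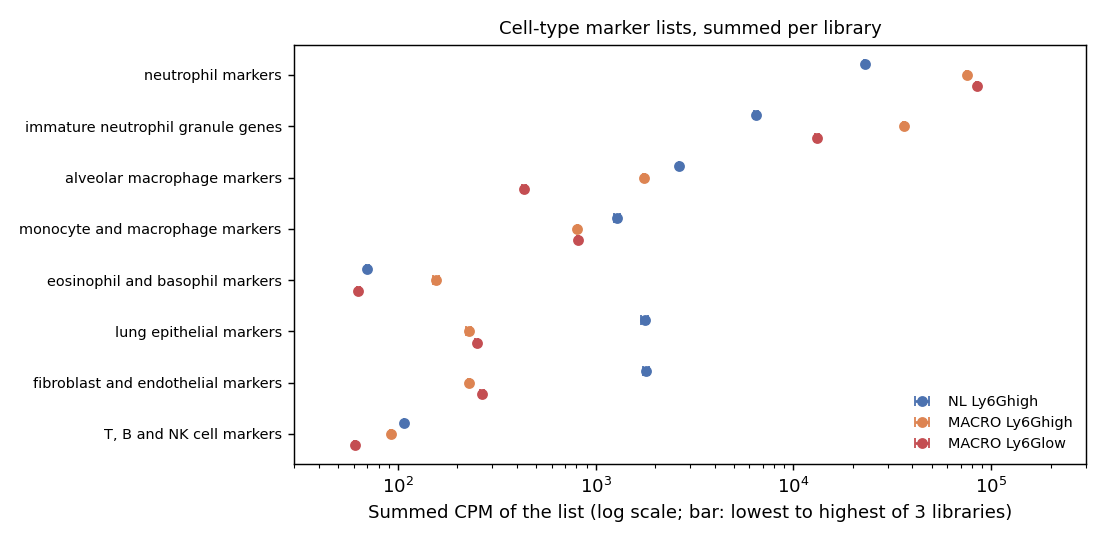
Summed CPM (horizontal, log scale) of each fixed marker list in NL Ly6Ghigh, macrometastatic (MACRO) Ly6Ghigh and macrometastatic Ly6Glow neutrophils, where a bar spans the lowest to the highest of 3 libraries. Neutrophil markers were lowest in NL (22806 to 22992), and lung epithelial and fibroblast and endothelial markers were highest there.

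Among the relatives of Saa3, Saa1, a main circulating acute-phase form made by liver, was the only other tested gene of the 4 in the SAA family. It had 1.34 to 3.94 estimated counts per library in NL, 8.09 to 11.56 in macrometastatic Ly6Ghigh and 14.27 to 18.76 in Ly6Glow. It rose in Ly6Glow over macrometastatic Ly6Ghigh by 1.06 (SE 0.333, edgeR adjusted p = 0.00988), a call that was lost without macrometastatic Ly6Ghigh replicate 1 (0.91) and on log2(FPKM + 1) (0.56). Its counts came to 0.0891% to 0.798% of those of Saa3, with which it shares sequence, so that its values are uncertain. Saa2 and Saa4 stood at 0.264 CPM or less in every group mean and were not tested.

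Of 25 WAP-domain family genes, 19 had values and 8 were tested. In Ly6Glow over macrometastatic Ly6Ghigh 3 of the 8 were called higher (Wfdc17, Wfdc18 and Wfikkn2) and none lower. Of all tested genes, 9.29% were called higher and 15.9% lower. The median log2 fold change of the 8 was 0.28 beside -0.04 over all tested genes. The 8 include the picked genes, Wfdc17 among them, so nothing is read from this count. Wfdc18, also known as Expi and a close neighbour of Wfdc17, had 2.3 ± 0.588 and 3.45 ± 0.363 CPM, with a log2 fold change of 0.59 (edgeR adjusted p = 0.0182), barely over the threshold. That call was lost without macrometastatic Ly6Ghigh replicate 1 (0.51), without replicate 2 (0.47), without Ly6Glow replicate 3 (0.51), with no filter on low counts (0.57) and on FPKM. Wfikkn2, which encodes a secreted protein with several inhibitor domains that binds growth factors of the TGF-beta family, had 1.01 ± 0.159 and 2.89 ± 0.736 CPM and a log2 fold change of 1.5 (edgeR adjusted p = 0.000179), a call lost on log2(FPKM + 1). With the 3 picked genes left out, Wfdc18 rose in macrometastatic Ly6Ghigh over NL, by 2.1 (adjusted p = 2.58e-07), while Wfdc1, Wfdc2 and Wfikkn1 fell and Wfikkn2 had a log2 fold change of 0.16. The call of Wfikkn1 (-0.92) was lost with DESeq2 (-0.91), on log2(FPKM + 1) (-0.38), without macrometastatic Ly6Ghigh replicate 1 (-0.82) or replicate 2 (-0.60) and without NL replicate 3 (-0.77). In Ly6Glow over NL, Wfdc18 and Wfikkn2 rose by 2.7 and 1.66 and the same 3 genes fell, where the calls of Wfikkn2 and Wfikkn1 were lost on log2(FPKM + 1) (0.34 and -0.48). Wfdc2, known as HE4 and made by airway epithelium, stood at 10.9 ± 1.22 CPM in NL, 0.895 ± 0.205 in macrometastatic Ly6Ghigh and 0.725 ± 0.0755 in Ly6Glow. Wfdc1 stood at 4.58, 0.568 and 0.645 CPM. Both were highest in NL, as were the lung epithelial and the fibroblast and endothelial marker lists, and the part of those cells was not tested.

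Wfdc17, Wfdc18 and Wfdc21 lie in 1 cluster, and the genes around the members gave further values. Distances run from the member's start to the middle of the other gene. Wfdc18, 6.2 kb from the start of Wfdc17, was higher in both metastatic groups at a small fraction of its level. On the same side Heatr6, at 64.7 kb, rose over NL by 1.64 in macrometastatic Ly6Ghigh and by 1.31 in Ly6Glow (adjusted p = 1.23e-17 and 1.67e-15), with a log2 fold change of -0.34 between the metastatic groups. On the other side the chemokine genes Ccl3 and Ccl4, at -55.4 and -47.3 kb, rose in Ly6Glow over macrometastatic Ly6Ghigh by 0.86 and 1.19 (adjusted p = 1.02e-14 and 1.02e-15). In macrometastatic Ly6Ghigh over NL, Ccl3 had a log2 fold change of 0.01 and Ccl4 fell by 0.63. Around Saa3 the genes outside the SAA family differed little: Saal1, Hps5 and Gtf2h1, within 100 kb, had log2 fold changes from -0.28 to 0.37 in the 3 comparisons and none was called. Near Slpi, Matn4 (at 40.8 kb), Rbpjl (52.8 kb) and Sdc4 (77.2 kb) fell over NL in both metastatic groups, by values from -1.07 to -4.61.

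**Figure D4:**
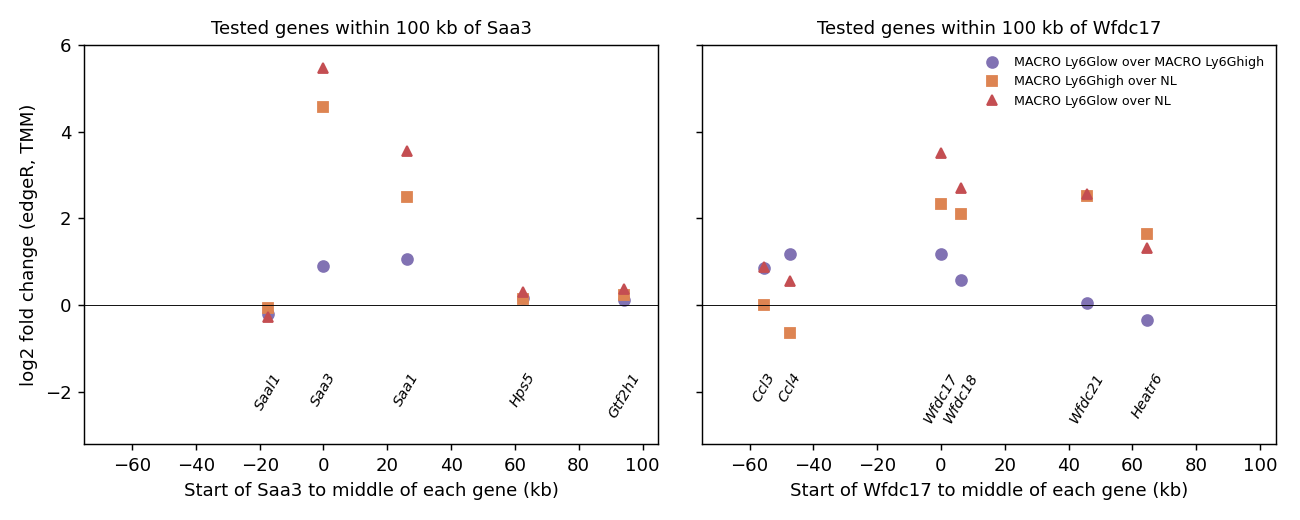
Log2 fold change (vertical, edgeR with TMM) of the tested genes within 100 kb of Saa3 (left) and Wfdc17 (right) against the distance from its start to the middle of each gene (kb), for the 3 comparisons. Saa3 stands apart from Saal1, Hps5 and Gtf2h1, which lie between -0.28 and 0.37. The points of Saa1 against NL rest on 1.34 to 3.94 counts per NL library and depend on the prior count of the fit.

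Receptors through which serum amyloid A proteins act were divided. Of 12 tested, 4 were called higher and 2 lower in Ly6Glow over macrometastatic Ly6Ghigh (median log2 fold change 0.17 beside -0.04 over all tested genes). Those that rose were the formyl peptide receptor gene Fpr1 (314 to 563 CPM, 0.84), the Toll-like receptor genes Tlr4 (0.76) and Tlr2 (0.68) and the Tlr4 partner Ly96 (0.71), and those that fell were the scavenger receptor genes Scarb1 (-0.68) and Olr1 (-0.62). Only 1 of the 4 rises, that of Fpr1, remained on log2(FPKM + 1). Fpr2, the receptor most often linked to serum amyloid A, had 268 CPM in NL, 814 in macrometastatic Ly6Ghigh and 931 in Ly6Glow. It rose over NL by 1.61 and 1.8, and its value between the metastatic groups was 0.19. Against NL, 2 receptor genes were called higher and 5 lower in macrometastatic Ly6Ghigh (median -0.38 beside -0.09), and 3 higher and 7 lower in Ly6Glow (median -0.89 beside -0.16). The largest falls were those of Marco, Ager and Cd36 in both, of which Marco is also on the alveolar macrophage list and Ager on the epithelial list.

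Of 24 tested genes that induce, relay or restrain the acute-phase response (called inducers below), 12 were called higher in Ly6Glow over macrometastatic Ly6Ghigh. Another 2 were called lower and 10 were not called (median 0.58 beside -0.04). The list holds inhibitors too, and Nfkbia (0.84) is among the 12, so these are not inducers alone. The largest rises were those of the cytokine gene Il1b, from 2800 to 6700 CPM (1.26, edgeR adjusted p = 1.8e-19), the TNF receptor gene Tnfrsf1b (1.1) and the IL-1 receptor subunit gene Il1rap (1.09). The falls were Cebpe (-2.56), a transcription factor gene of maturing granulocytes, and Cebpa (-0.98). Il6, the main inducer of acute-phase genes in liver, was low, at 35.9 CPM in NL, 15.1 in macrometastatic Ly6Ghigh and 10.5 in Ly6Glow. In macrometastatic Ly6Ghigh over NL the list was balanced, with 5 higher, 6 lower and a median of -0.08 beside -0.09. Il1b had a log2 fold change of -0.55 there, beside 4.56 for Saa3. In Ly6Glow over NL 13 were higher and 5 lower (median 0.66 beside -0.16), led by Nfkbia (2.42), the gene of the NF-kB inhibitor. On log2(FPKM + 1) the 12 rises and 2 falls became 7 and 4 in Ly6Glow over macrometastatic Ly6Ghigh, and the 13 became 3 in Ly6Glow over NL.

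Other acute-phase protein genes did not share 1 direction. Of 19 tested, 4 were higher and 5 lower in Ly6Glow over macrometastatic Ly6Ghigh (median 0.17 beside -0.04). Those higher were the endotoxin receptor gene Cd14 (2380 to 5870 CPM, 1.3), Il1rn (1.18), Itih4 and Saa1. Without macrometastatic Ly6Ghigh replicate 1 the calls of Itih4 (0.65) and Saa1 (0.91) were lost on their adjusted p, leaving 2. The call of Itih4 was also lost without macrometastatic Ly6Ghigh replicate 2 (0.62), without Ly6Glow replicate 3 (0.70) and on FPKM (0.15 to 0.43). The largest falls were those of Mt2 (-2.23), Orm1 (-2.02) and Cfb (-1.14). In macrometastatic Ly6Ghigh over NL 7 were higher and 9 lower, and in Ly6Glow over NL 9 and 8. Lcn2, a granule protein that binds bacterial siderophores, rose by 2.62 and 2.21 over NL, Lbp by 2.76 in macrometastatic Ly6Ghigh, and the haptoglobin gene Hp by 2.18 and Chil1 by 2.18 in Ly6Glow. Complement genes were divided, since Cfb (-3.64 and -4.77) and C4b (-3.14 and -3.33) fell in both and C3 (1.02 and 1.33) rose in both. Saa3, at 4.56 and 5.47, stood above each tested acute-phase gene in both comparisons with NL. It was picked for that rise, so nothing is read from this order.

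The granule protease list holds the known targets of Slpi, Elane and Ctsg, beside proteases of basophils, mast cells and lymphocytes. Of 9 tested genes, of which 8 encode serine proteases and Cpa3 a metalloprotease, none was called higher and 8 lower in Ly6Glow over macrometastatic Ly6Ghigh (median -1.07 beside -0.04). The neutrophil elastase gene Elane fell from 9.06 to 1.28 CPM (-2.83, edgeR adjusted p = 3.24e-11), the proteinase 3 gene Prtn3 from 36.1 to 7.61 (-2.25), the cathepsin G gene Ctsg from 3.37 to 0.827 (-2.02), and Prss34, a basophil protease gene, by 0.84. Against NL 7 were higher and 2 lower in each metastatic group, with medians of 3.57 and 1.96, led by Prtn3 (5.6) in macrometastatic Ly6Ghigh and Prss34 (4.38) in Ly6Glow. The 2 falls were those of the lymphocyte genes Gzma and Gzmb. By FPKM, Elane, Ctsg and Prtn3 together were far below the WAP-domain members in every library. Elane, Ctsg and Prtn3 summed to 1.33 to 2.11 FPKM in NL, 49 to 52.5 in macrometastatic Ly6Ghigh and 7.84 to 9.43 in Ly6Glow, whereas Slpi, Wfdc17 and Wfdc21 summed to 1097 to 1179, 3899 to 4081 and 5999 to 6401. Slpi, the only member described above as blocking Elane and Ctsg, had means of 168, 319 and 353 FPKM. Whether Wfdc17 or Wfdc21 inhibits these proteases was not tested. Granule proteases are made mostly before neutrophils leave the marrow, and stored protein was not measured.

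Genes of other protease inhibitor families were divided. Of 18 tested serpin and alpha-macroglobulin genes, none was called higher and 5 lower in Ly6Glow over macrometastatic Ly6Ghigh (median -0.27 beside -0.04). Serpinb1a, an inhibitor of neutrophil elastase, had 51.3 CPM in NL, 481 in macrometastatic Ly6Ghigh and 185 in Ly6Glow, and it rose over NL (3.23 and 1.85) but fell between the metastatic groups (-1.38, edgeR adjusted p = 1.81e-18). Serpinb2 (-0.9) also fell. Against NL 3 serpin genes were higher and 13 lower in macrometastatic Ly6Ghigh, and 2 and 13 in Ly6Glow. Serpinf1 and Serpinh1, genes known from mesenchymal cells, were among those that fell in both. Their products are serpins not known to inhibit proteases, so these counts are of family members. Among 18 tested inhibitors of other kinds, 3 were higher (Ecm1, 0.74, Timp2, 0.61, and Spint1, 0.75) and 2 lower (Pebp1, -0.85, and Reck, -0.78) between the metastatic groups. The stefin genes, which encode inhibitors of cysteine proteases, were also higher in both metastatic groups than in NL. Stfa3 had 26.6, 474 and 512 CPM, Stfa2 had 104, 1280 and 1600 CPM and Stfa2l1 had 150, 754 and 987 CPM in NL, macrometastatic Ly6Ghigh and Ly6Glow. They rose over NL by 2.33 to 4.27, and their values between the metastatic groups were 0.11, 0.32 and 0.39, below the fold threshold. Stefin genes are near-identical copies of each other, so their single values are uncertain. In this list 6 were higher and 8 lower in macrometastatic Ly6Ghigh over NL and 6 and 6 in Ly6Glow over NL, with Timp3 and Tfpi falling most. Bst2, which is not known as a protease inhibitor, is on the list and among the falls in both.

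**Figure D5:**
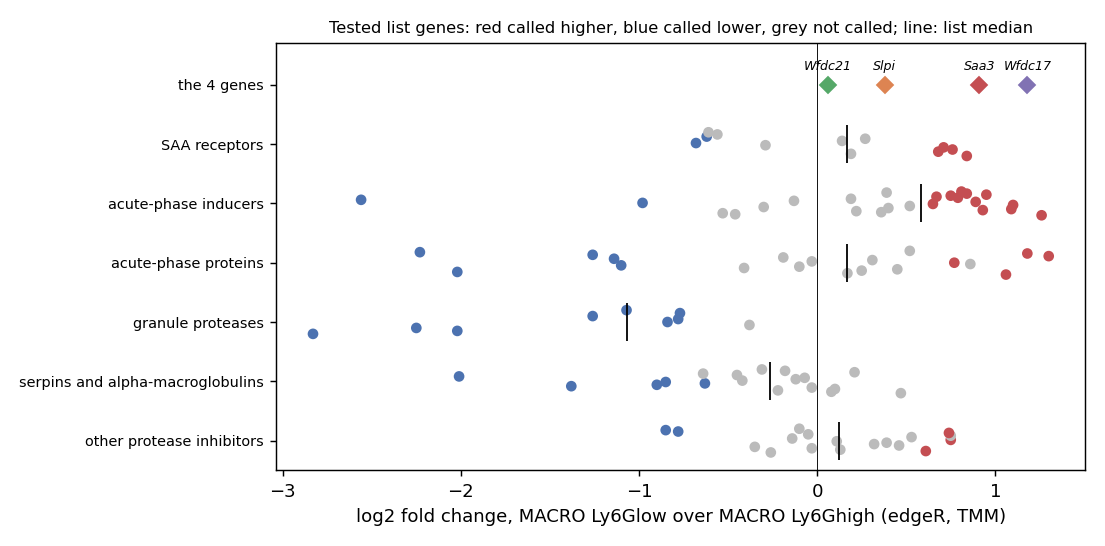
Log2 fold change (horizontal, edgeR with TMM) in macrometastatic (MACRO) Ly6Glow over Ly6Ghigh of the 4 genes and of every other tested gene of 6 fixed lists, with red for called higher, blue for called lower, grey for not called and a line at the list's median. Granule proteases lie to the left of 0, at a median of -1.07. Acute-phase inducers, a list that also holds inhibitors, lie mostly to the right, at 0.58.

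The genes most like each member over the 9 libraries were found by the root-mean-square (RMS) difference of their log2 CPM, each centred on its own mean, among 10265 genes with at least 5 CPM in a group. Wfdc17 was matched closely by Ifitm1, an interferon-induced membrane protein gene, which had 210 CPM in NL, 1150 in macrometastatic Ly6Ghigh and 2410 in Ly6Glow (RMS 0.06). Gclm, of glutathione synthesis, and Prok2, a secreted chemoattractant, came next (0.138 and 0.166). For Slpi the nearest genes were Atg9a (0.027), Tmem268 (0.04) and Pi16 (0.047), and for Wfdc21 Tmem40 (0.074), Il27 (0.077) and Gpr84 (0.088). Saa3 had no close match. Its nearest gene was Casp6, a caspase gene, with 6.9, 93.8 and 179 CPM (RMS 0.388), followed by Stfa3 (0.504) and Ggt1 (0.507). The members themselves differed from each other by 0.476 (Wfdc21 and Slpi) to 1.63 (Saa3 and Slpi), and each had nearer genes outside the set. Those were the nearest of 10265 genes, against only the few other members, so nothing is read from this about the set. These are descriptions over libraries of 3 groups, and any gene with similar differences between the groups would be near.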

How the data were processed

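RNA from 9 libraries of sorted mouse lung neutrophils (3 groups, 3 libraries each) was enriched for poly(A) RNA and made into strand-specific libraries, per the labels. The authors deposited an estimated count and an FPKM value for each gene and library. The estimated counts were not normalized, and 37.9% were whole numbers. The FPKM values as deposited were scaled by the authors for length and depth. The build is mm10 per the labels, and the aligner, the counting program and its strand setting are not given in the sources used here. Of 22064 genes, 3739 were blank. Counts were rounded, filtered with filterByExpr (14108 genes kept), normalized by TMM (factors 0.803 to 1.32) and tested in R 4.3.3 with edgeR 4.0.16 (quasi-likelihood test, 1 model of 9 libraries, Benjamini-Hochberg over all tested genes, adjusted p at most 0.05 and absolute log2 fold change above 0.58). DESeq2 1.42.0, limma 3.58.1 on log2 FPKM (pseudocount 1 or 0.1), other scalings, filters, thresholds, a replicate block and leaving out each library were alternatives. CPM means carry the SD of 3 libraries. With 3 libraries against 3, an exact permutation test could not give a p below 0.1, so none was used. Replicate libraries differed by more than counting noise (chi-square per degree of freedom 1.4 to 5.36), so none was counted as a repeat of another. The highest values were those of pairs with NL replicate 2. The common biological coefficient of variation in edgeR, the spread between replicates beyond counting, was 0.0346. These values cannot show whether replicates came from separate mice or from 1 pool, and the p-values rest on this small spread.

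Start regions came from RefSeq and gene models from GENCODE and RefSeq, both of build mm10. Genes were named by rule, namely the 4 members, the tested genes of the SAA and WAP-domain families, up to 3 of the largest called rises and falls per list and comparison with at least 5 CPM in the higher group, and the 3 genes nearest to each member. A gene that this rule would name is not reported here. Genes near the members on the chromosome, Ly6g, Siglecf, Tlr2, Itih4, Il6, Spint1, C3, Cpa3, Ltf, Ngp, Camp and Ctsg were named after their values were seen. The members, lists and tests were chosen with earlier results of these data known. The fit was tested on simulated data before use.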

Additional observations from a re-analysis of the deposited data

How the results depend on the processing

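For the 4 genes, 123 of 152 alternative values kept their direction, their side of the threshold and, where no test was made, a distance under the spread between replicates. Wfdc21 in Ly6Glow over macrometastatic Ly6Ghigh reversed to -0.18 in all 3 fits on FPKM, which fell under 0.58 in size, and the cause was not tested. The fold threshold itself was varied for counts of genes only. Against NL, on log2(FPKM + 1) the fold changes of Saa3, Wfdc17, Wfdc21 and Slpi were 4.086, 1.867, 2.049 and 0.922 in macrometastatic Ly6Ghigh and 4.745, 2.811, 1.869 and 1.066 in Ly6Glow. With a pseudocount of 0.1 they were 4.11, 1.868, 2.053 and 0.926, and 4.77, 2.813, 1.873 and 1.071. With upper-quartile normalization they were 4.365, 2.14, 2.324 and 1.197, and 5.275, 3.324, 2.384 and 1.58. With DESeq2's size factors Saa3 and Wfdc17 in Ly6Glow over NL were 5.555 and 3.603. Leaving out each library gave 0.879 to 0.933 for Saa3, 1.157 to 1.2 for Wfdc17, 0.019 to 0.091 for Wfdc21 and 0.346 to 0.409 for Slpi between the metastatic groups. Replicate numbers did not pair the libraries (correlations of same-numbered libraries -0.068 to 0.077, 0 of 9 over 0.1). With a replicate block Saa3, Wfdc17, Wfdc21 and Slpi had 0.907, 1.181, 0.057 and 0.381, and 3522 genes were called against 3560, with no call of the 4 genes changed. The 3560 became 2243 on log2(FPKM + 1), 2223 with FPKM of at least 1 in 3 libraries, 7868 with no fold threshold and 1305 with a threshold of 1. Counts of called genes in the lists moved as follows, with the count in the report given first. On log2(FPKM + 1), with or without the filter on FPKM, higher calls between the metastatic groups went from 3 to 1 for WAP-domain genes, 4 to 2 for acute-phase proteins, 4 to 1 for receptors, 12 to 7 for inducers and 3 to 0 for other inhibitors (to 1 with a pseudocount of 0.1), and lower calls from 2 to 4 for inducers. In macrometastatic Ly6Ghigh over NL receptors went from 2 to 1 higher and 5 to 8 lower (9 with a pseudocount of 0.1), and inducers from 5 to 3 higher and 6 to 10 lower. In Ly6Glow over NL, higher calls went from 2 to 1 for WAP-domain genes, 13 to 3 for inducers, 7 to 4 for proteases and 2 to 1 for serpins. With a pseudocount of 0.1, lower calls went from 3 to 6 for WAP-domain genes in both comparisons with NL, from 2 to 4 for receptors between the metastatic groups and from 6 to 10 for other inhibitors in Ly6Glow over NL. With at least 10 counts in every library, fewer genes were tested, and WAP-domain calls against NL went from 1 to 0 and 2 to 1 (higher) and from 3 to 0 (lower, both), and protease calls from 7 to 4 (higher, both) and from 8 to 5 (lower, between the metastatic groups). With no fold threshold, counts between the metastatic groups went from 4 to 7 (higher) for acute-phase proteins and receptors, 2 to 6 (lower) for inducers, 5 to 8 (lower) for serpins and 3 to 8 (higher) for other inhibitors. Against NL they went from 3 to 5 higher (Ly6Glow) and 5 to 9 lower (Ly6Ghigh) for receptors, and from 5 to 10 higher and 6 to 13 lower (Ly6Ghigh) for inducers. With a threshold of 1, receptors went from 4 and 2 to 0 and 0, inducers from 12 and 2 to 3 and 1, proteases from 8 to 5 lower, serpins from 5 to 2 lower and other inhibitors from 3 and 2 to 0 and 0 between the metastatic groups. Against NL, that threshold gave 1 receptor and 3 inducers higher, 0 proteases and 5 other inhibitors lower in Ly6Ghigh, and 6 inducers and 3 other inhibitors higher in Ly6Glow. With DESeq2 or its size factors 1 receptor was lower between the metastatic groups in place of 2, Olr1 falling under the fold threshold. Serpins called higher there went from 0 to 1 with no filter on low counts, and leaving out a library gave 0 to 1. Acute-phase proteins called higher there ranged from 2 to 5 without 1 library. Among single named genes, Ecm1 in Ly6Glow over NL reversed from 0.63 to -0.068, -0.07 and -0.068 on FPKM. Of the named genes' alternative values, 95 lost their call and 3083 kept it. No paired samples, no record of pooling and a sort by surface protein limit all comparisons, and the depth limited genes near 1 CPM such as Saa1, Wfdc18 and Wfikkn2.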
